A study of Homo sapiens with 38 samples.

Results

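The MHC class I antigen presentation genes were followed in HCT116 cells, a human colorectal carcinoma line, after siRNA silencing of the ESCRT-associated ATPases VPS4A and VPS4B. The set was 9 genes chosen by symbol and found through their RefSeq identifiers, and all 9 were among the 12627 genes of the table. They were the heavy chain genes HLA-B (NM_005514), HLA-C (NM_002117), HLA-E (NM_005516) and HLA-F (NM_001098479), the light chain gene B2M (NM_004048), the peptide transporter genes TAP1 (NM_000593) and TAP2 (NM_000544), the tapasin gene TAPBP (NM_172208) and the regulator NLRC5 (NM_032206). RNA was sequenced in 9 conditions, 72 h after transfection where cells were transfected. Non-transfected cells (NT) and cells given the non-targeting duplex siCTRL#1 were the references, and cells given a further non-targeting duplex, siCTRL#2, formed another control group whose dose the labels do not give. Each targeting duplex was given at 30 nM in a total of 60 nM siRNA, and the siCTRL#1 reference received the same total of 60 nM. Cells silenced for 1 paralog (siVPS4A#1, siVPS4A#2, siVPS4B#1 or siVPS4B#2) received the rest of the total as siCTRL#1. Cells silenced for both received siVPS4A#2 with siVPS4B#1 (siVPS4A+B#1) or siVPS4A#1 with siVPS4B#2 (siVPS4A+B#2). There were 5 libraries for siCTRL#1 and 4 for every other condition, and the series describes the replicates as biological. The siVPS4A#1 libraries used were replicates 1, 3, 4 and 5, so they shared 3 replicate numbers with NT. Only siCTRL#1 and siVPS4A#1 had a replicate 5. The library labelled siVPS4A#1 replicate 2 was left out by the rule that chose the set, so 37 of 38 libraries were used. Its VPS4B level goes against that label, with 1 read or 1.49 per 1000000, beside 21.7 to 35.0 in the other siVPS4A#1 libraries and 0.284 to 1.43 in those silenced for both paralogs. All cells were of 1 line, and in bulk RNA a change in RNA per cell cannot be told apart from a change in the number of cells that express a gene.

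MHC class I molecules display peptides from the inside of the cell to CD8 T cells. A heavy chain pairs with the light chain beta-2-microglobulin (B2M) in the endoplasmic reticulum, TAP1 and TAP2 together form the transporter that brings peptides in from the cytosol, and tapasin (TAPBP) holds an empty heavy chain beside that transporter until a peptide is bound. HLA-C and HLA-B are classical heavy chains, whereas HLA-E and HLA-F are non-classical ones, HLA-E being the ligand of the NKG2A receptor of natural killer cells. Promoters of these genes are known to respond to NF-kappaB, to interferon regulatory factors and to NLRC5, the class I transactivator, which acts through an enhanceosome on the X and Y boxes. VPS4 proteins drive the last step of ESCRT action, which sorts membrane proteins into endosomes for lysosomal degradation.

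The 7 members on chromosome 6 lie in the MHC region of GRCh37, from HLA-F (chr6:29690552-29706305, plus strand) to TAPBP (chr6:33267471-33282061, minus strand). TAP2 (chr6:32789610-32806516) and TAP1 (chr6:32812986-32821593) are on the minus strand, with the immunoproteasome gene PSMB8 (chr6:32808494-32812456) between them. HLA-C (chr6:31236526-31239907) and HLA-B (chr6:31321649-31334844) are on the minus strand too, and HLA-E (chr6:30457286-30461971) is on the plus strand. B2M lies apart at chr15:45003556-45011049 on the plus strand and NLRC5 at chr16:57023397-57117443 on the plus strand.

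RefSeq promoters of GRCh38.p14 were found for 7 of the 9 members, HLA-E and NLRC5 having no entry. The 250 bases before the transcription start are shown for B2M, the TAP genes, TAPBP and, as the best measured heavy chain with an entry, HLA-C, so that the elements named above can be seen. Capitals mark matches, on either strand, to the NF-kappaB site consensus (kB), to the core of the interferon-stimulated response element (ISRE, GAAA then NN then GAAA) and to an X2 box with a Y box (TGACG followed 15 to 25 bases later by ATTGG). The motifs and this spacing were chosen after the promoters had been read.
B2M, chr15:44711267-44711516, plus strand: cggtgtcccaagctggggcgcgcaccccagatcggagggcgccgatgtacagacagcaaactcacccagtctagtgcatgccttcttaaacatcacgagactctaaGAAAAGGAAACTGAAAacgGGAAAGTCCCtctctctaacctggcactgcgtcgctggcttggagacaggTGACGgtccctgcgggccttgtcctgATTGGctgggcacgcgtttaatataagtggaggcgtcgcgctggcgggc
TAP1, chr6:32853705-32853954, minus strand: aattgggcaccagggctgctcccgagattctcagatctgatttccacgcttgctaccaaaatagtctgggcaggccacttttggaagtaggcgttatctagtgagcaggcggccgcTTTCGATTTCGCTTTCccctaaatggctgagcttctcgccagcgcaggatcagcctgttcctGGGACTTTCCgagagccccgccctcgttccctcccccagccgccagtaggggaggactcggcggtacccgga
TAP2, chr6:32838740-32838989, minus strand: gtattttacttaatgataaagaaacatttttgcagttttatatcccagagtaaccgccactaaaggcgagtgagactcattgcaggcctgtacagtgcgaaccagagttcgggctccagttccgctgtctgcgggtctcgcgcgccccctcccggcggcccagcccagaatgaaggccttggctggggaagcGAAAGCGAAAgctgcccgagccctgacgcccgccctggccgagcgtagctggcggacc
TAPBP, chr6:33314079-33314328, minus strand: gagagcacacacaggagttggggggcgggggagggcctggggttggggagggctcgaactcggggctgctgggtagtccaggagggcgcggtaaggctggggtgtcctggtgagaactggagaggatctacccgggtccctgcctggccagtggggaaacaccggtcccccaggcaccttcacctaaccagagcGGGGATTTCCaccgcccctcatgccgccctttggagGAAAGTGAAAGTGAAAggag
HLA-C, chr6:31272093-31272342, minus strand: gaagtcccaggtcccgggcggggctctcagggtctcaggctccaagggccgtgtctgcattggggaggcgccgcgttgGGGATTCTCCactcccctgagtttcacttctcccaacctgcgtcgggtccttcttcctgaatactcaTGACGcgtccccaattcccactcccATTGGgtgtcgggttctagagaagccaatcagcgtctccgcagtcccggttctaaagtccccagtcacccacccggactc
The B2M window holds all 3 elements, in the order ISRE, kB, X2 and Y. TAP1, at the first of its 2 listed starts, and TAPBP hold the ISRE core and the kB consensus without the box pair, TAP2 holds the ISRE core alone, and HLA-C holds the kB consensus and the box pair. Of the members not shown, HLA-B held the kB consensus and the box pair and HLA-F the ISRE core. Among all 35116 promoters of the table cut to the same length, 9.96% held the kB consensus, 3.02% the ISRE core and 0.407% the box pair. A match describes the letters in this window and is not a measured site.

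The libraries held between 5090666 and 11035293 reads, with a median of 7561496. Levels are given as CPM, the reads per 1000000 reads of a library after TMM scaling, and since the panel reads each gene by its own amplicon they are compared between conditions and not between genes. VPS4A fell from 190 ± 14.0 CPM (SD, n = 5) with siCTRL#1 to 2.18 ± 0.895 with siVPS4A#1 and 7.88 ± 2.22 with siVPS4A#2 (n = 4 each), and to 20.0 ± 10.6 and 5.03 ± 1.96 in the combined conditions #1 and #2. VPS4B stood at 20.7 ± 3.54 (SD, n = 5) with siCTRL#1 and between 0.433 ± 0.335 and 1.28 ± 0.315 (n = 4 each) in the 4 conditions that target it. Fold changes are log2 differences of CPM after adding 1, which understates the change of genes with few reads, from limma fitted on all genes with the replicate number as a block. A gene is said to rise, fall or be called where the adjusted p was under 0.05. Each called value was recomputed under 13 alternatives, or 12 for HLA-B.

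B2M, the light chain shared by every class I molecule, rose after combined silencing with both duplex pairs and against both references. NT libraries held 582, 478, 470 and 423 CPM and siCTRL#1 libraries 408, 406, 292, 370 and 375. The siVPS4A+B#1 libraries held 717, 711, 790 and 963, and the siVPS4A+B#2 libraries 781, 856, 1000.0 and 775. Every combined library thus lay above every NT and siCTRL#1 library. Against siCTRL#1 the log2 fold change was 1.11 ± 0.12 (SE; 2.16-fold; adjusted p = 2.43e-09) with siVPS4A+B#1 and 1.21 ± 0.12 (2.32-fold; adjusted p = 1.66e-10) with siVPS4A+B#2. Against NT it was 0.70 ± 0.13 and 0.81 ± 0.13 (adjusted p = 2.02e-05 and 1.65e-06). The difference was positive within all 4 replicate numbers in each of these comparisons, and all 4 calls were kept under 13 of 13 alternatives, with log2 fold changes between 0.54 and 1.31. The references themselves differed for B2M, siCTRL#1 lying 0.41 ± 0.12 below NT on the log2 scale (adjusted p = 0.0182), so the change was smaller against NT. That difference between references was called under 10 of 13 alternatives.

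TAP1, a subunit of the peptide transporter, also rose with both pairs and against both references. It stood at 47.7, 51.0, 51.3 and 61.3 CPM in NT libraries and at 52.5, 53.6, 59.8, 48.1 and 52.1 in siCTRL#1 libraries. The siVPS4A+B#1 libraries held 111, 111, 93.2 and 115, and the siVPS4A+B#2 libraries 123, 117, 123 and 117. No combined library came within the range of the references. The log2 fold change against siCTRL#1 was 1.02 ± 0.11 (SE; 2.02-fold; adjusted p = 1.18e-09) with pair #1 and 1.18 ± 0.11 (2.26-fold; adjusted p = 1.95e-11) with pair #2. Against NT the values were 1.01 ± 0.11 and 1.18 ± 0.11 (adjusted p = 1.44e-09 and 3.08e-11). All 4 calls were kept under 13 of 13 alternatives.

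TAP2, the other transporter subunit, moved less and was called with only 1 of the pairs. It held 55.7, 48.0, 47.7 and 68.4 CPM in NT libraries and 45.5, 46.3, 56.6, 56.0 and 44.7 in siCTRL#1 libraries. After siVPS4A+B#1 it held 68.8, 55.5, 71.4 and 79.4, and after siVPS4A+B#2 79.2, 74.1, 96.4 and 89.8. The pair #2 libraries all lay above both references, whereas those of pair #1 overlapped with them. Within replicate numbers TAP2 was higher in 4 of 4 with each pair against each reference. With pair #1 these log2 differences were 0.26 to 0.59 against siCTRL#1 and 0.20 to 0.57 against NT. TAP2 rose by 0.66 ± 0.17 (log2, SE; adjusted p = 0.00151) against siCTRL#1 and by 0.63 ± 0.17 (adjusted p = 0.00326) against NT with pair #2, calls kept under 13 of 13 alternatives. With pair #1 the values were 0.36 ± 0.17 and 0.32 ± 0.17 (adjusted p = 0.0963 and 0.138). The pairs themselves differed by 0.30 ± 0.17 (adjusted p = 0.195), so a difference between them was not called.

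TAPBP, the tapasin gene, rose in all 4 comparisons at a low level. It rested on 7 to 40 reads in the NT and siCTRL#1 libraries and 12 to 45 in the combined ones. NT libraries held 0.997, 2.61, 2.49 and 1.86 CPM, and siCTRL#1 libraries 1.68, 2.29, 2.03, 1.01 and 3.78. The siVPS4A+B#1 libraries held 3.27, 3.35, 4.06 and 3.22, and the siVPS4A+B#2 libraries 3.55, 2.56, 5.12 and 5.41. Replicate 5 of siCTRL#1, at 3.78, and replicate 2 of NT, at 2.61, lay within the range of the combined libraries. Within replicate numbers TAPBP was higher in 4 of 4 in each comparison apart from siVPS4A+B#2 against NT, where it was higher in 3 and lower in 1. The log2 fold change against siCTRL#1 was 0.67 ± 0.19 (SE; adjusted p = 0.0047) with pair #1 and 0.84 ± 0.19 (adjusted p = 0.000347) with pair #2, and against NT it was 0.62 ± 0.19 and 0.79 ± 0.19 (adjusted p = 0.00995 and 0.00104). The call for pair #1 was lost against NT without replicate 1 and against siCTRL#1 without replicate 4.

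**Figure D1:**
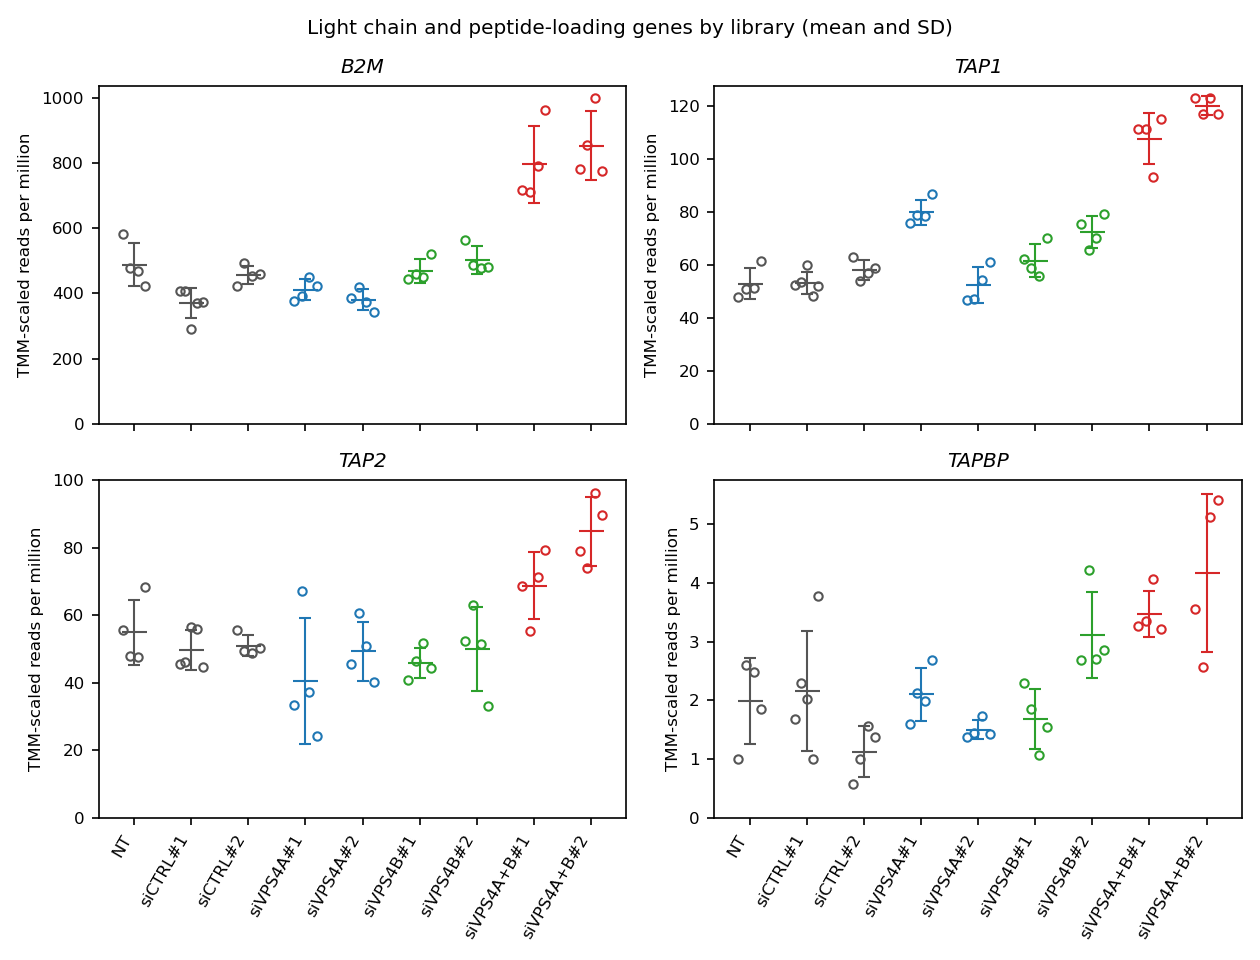
CPM after TMM scaling (y axes, from 0) of B2M, TAP1, TAP2 and TAPBP in each library of the 9 conditions (x axes). Circles are libraries, and dashes with bars are means with SD. For B2M the combined libraries lie between 711 and 1000.0, above all others, and for TAP1 between 93.2 and 123, whereas for TAPBP they lie between 2.56 and 5.41 and overlap with libraries of NT, siCTRL#1, siVPS4A#1 and siVPS4B#2.

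HLA-E, the non-classical heavy chain read by NKG2A, moved in opposite directions with the pairs. NT libraries held 265, 264, 241 and 294 CPM and siCTRL#1 libraries 274, 246, 213, 287 and 266. It held 459, 322, 291 and 327 with siVPS4A+B#1 and 234, 206, 181 and 203 with siVPS4A+B#2, so that the pairs did not overlap. Against siCTRL#1 HLA-E rose by 0.45 ± 0.11 (log2, SE; adjusted p = 0.000924) with pair #1 and fell by 0.30 (SE 0.11; adjusted p = 0.0217) with pair #2. Against NT the values were 0.37 ± 0.11 and -0.37 ± 0.11 (adjusted p = 0.00541 and 0.00548). The direct comparison of pair #2 with pair #1 gave -0.74 ± 0.11 (adjusted p = 1.29e-06), kept under 13 of 13 alternatives. The fall with pair #2 against siCTRL#1 was called under 8 of 13 alternatives. Without the replicate block neither fall with pair #2 was called, nor was the rise with pair #1 against NT.

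HLA-C, a classical heavy chain, was highest with siVPS4A+B#1. NT libraries held 374, 392, 362 and 386 CPM and siCTRL#1 libraries 559, 367, 551, 545 and 390. With siVPS4A+B#1 it held 836, 598, 620 and 591, above all NT and siCTRL#1 libraries, and with siVPS4A+B#2 597, 491, 583 and 425, which overlapped with siCTRL#1. It rose by 0.79 ± 0.14 (log2, SE; adjusted p = 2.36e-05) against NT and by 0.42 ± 0.14 (adjusted p = 0.0152) against siCTRL#1 with pair #1. With pair #2 it rose by 0.46 ± 0.14 (adjusted p = 0.00867) against NT, while the value against siCTRL#1 was 0.09 ± 0.14 (adjusted p = 0.62) and changed sign when libraries were scaled by total reads. The rise with pair #1 against siCTRL#1 was lost under that scaling and without replicate 1 or 2, and the rise with pair #2 against NT without replicate 1 or 3. HLA heavy chain genes are near-identical over long stretches, so their reads could be shared between them, and whether the amplicons fit the alleles of this line was not tested.

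HLA-F, a non-classical heavy chain, was measured on 9 to 87 reads a library. Its mean was 4.10 ± 0.873 (SD, n = 4) CPM in NT, 5.65 ± 1.89 (n = 5) with siCTRL#1, 6.45 ± 3.38 with siVPS4A+B#1 and 7.14 ± 3.03 with siVPS4A+B#2 (n = 4 each). Only the comparison of pair #2 with NT was called among those of the combined conditions with the references (0.62 ± 0.23 SE, log2; adjusted p = 0.0241), and it was lost without the replicate block and without replicate 1 or 2. HLA-B, a classical heavy chain like HLA-C, was at the floor of detection. It had 0 reads in 15 of 37 libraries, 3 or fewer in 35, at most 5 in any library and 41 in all, where 3 reads correspond to at most 0.589 CPM. The fit called HLA-B higher with siVPS4A+B#2 than in NT (adjusted p = 0.0247), on 1 to 5 reads against 0 or 1, and no fold is given. Among the members, HLA-C was thus the only classical heavy chain measured above the floor. Of 3 class I heavy chain genes outside the members, none was in the table.

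NLRC5, the transactivator of class I genes, was lower than in NT after combined silencing. NT libraries held 7.83, 10.3, 8.45 and 11.5 CPM and siCTRL#1 libraries 8.92, 9.26, 8.47, 9.41 and 7.10. The siVPS4A+B#1 libraries held 6.86, 10.0, 5.25 and 3.66, and the siVPS4A+B#2 libraries 6.94, 4.91, 3.68 and 10.6, with 1 library of each pair inside the NT range. NLRC5 fell by 0.55 against NT with both pairs (log2, SE 0.20 each; adjusted p = 0.0273 and 0.0254). Against siCTRL#1 the values were -0.47 ± 0.20 in both (adjusted p = 0.0609 and 0.0533), which pass the threshold when libraries are scaled by total reads. The calls against NT were lost without replicate 3 or 4 for pair #1, without replicate 2 or 3, or by DESeq2 or edgeR, for pair #2, and with the left-out library put back for both. With the non-targeting duplex siCTRL#2 its level was as low, at 6.28 ± 1.31 CPM (SD, n = 4), beside 6.45 ± 2.72 and 6.53 ± 3.02 with the pairs. The value of siCTRL#2 against siCTRL#1 was -0.45 ± 0.20 (log2, SE; adjusted p = 0.0866), lower within all 4 replicate numbers. Relative to NT and siCTRL#1, NLRC5 thus differed in direction from B2M, TAP1 and TAPBP, but such a level was not particular to combined silencing.

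**Figure D2:**
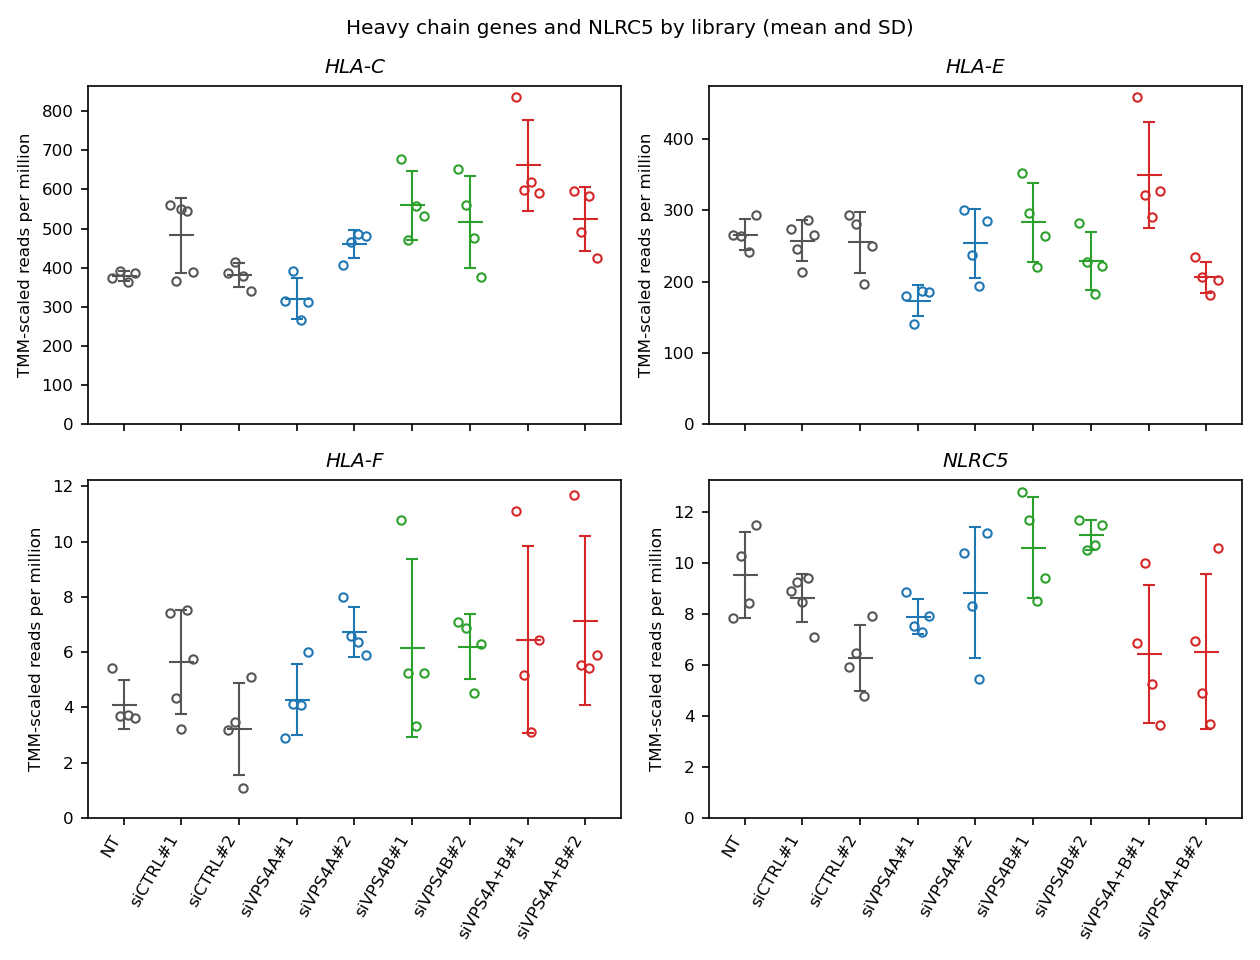
CPM after TMM scaling (y axes, from 0) of HLA-C, HLA-E, HLA-F and NLRC5 in each library of the 9 conditions (x axes). Circles are libraries, and dashes with bars are means with SD. HLA-E lies between 291 and 459 with siVPS4A+B#1 and between 181 and 234 with siVPS4A+B#2.

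Counted over the 9 members, combined silencing called 5 against siCTRL#1 and 6 against NT with pair #1, where 37.0% and 40.4% of all genes were called. With pair #2 it called 5 against siCTRL#1 and 9 against NT, where the background was 45.2% and 45.3%. These counts join both directions. With pair #1 all 5 rose against siCTRL#1, and against NT 5 rose and NLRC5 fell. With pair #2, 4 rose and HLA-E fell against siCTRL#1, and 7 rose and 2 fell, HLA-E and NLRC5, against NT. The 7 include HLA-B, which was at the floor. B2M, TAP1 and TAPBP rose in all 4 of these comparisons and no member fell in all 4, and 14.3% of all genes were called in the same direction in all 4. The median over the members of the mean log2 fold change was 0.44, beside -0.03 over all genes. Scaling by total reads in place of TMM factors lowered the median of all genes by 0.14 for pair #1 and by 0.11 for pair #2 against siCTRL#1, and under it B2M was still higher by 0.93 and 1.08, TAP1 by 0.84 and 1.04 and TAPBP by 0.54 and 0.75 (log2), all called.

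Silencing of VPS4A alone gave different values with its duplexes. With siVPS4A#1, HLA-E was at 180, 141, 187 and 185 CPM, below every NT and siCTRL#1 library, and fell by 0.57 (log2, SE 0.10; adjusted p = 2.65e-05) against siCTRL#1 and by 0.65 (SE 0.11; adjusted p = 1.64e-05) against NT. HLA-C was at 314, 392, 265 and 311, and fell by 0.58 (SE 0.14; adjusted p = 0.000755) against siCTRL#1, while the value against NT was -0.22 ± 0.15 (adjusted p = 0.259). TAP1 was at 75.8, 78.8, 78.2 and 86.6, above both references, and rose by 0.56 against each (SE 0.11 and 0.12; adjusted p = 5.29e-05 and 0.000186). These 5 calls were kept under 13 of 13 alternatives. They amount to 3 members against siCTRL#1 and 2 against NT, at a background of 37.0% and 37.5%. With siVPS4A#2 none of the 9 was called by limma against siCTRL#1, where 0.0871% of all genes were, or against NT, where 14.4% were. At an unadjusted p under 0.05 the counts with siVPS4A#2 were 0 against siCTRL#1 and 2 against NT. DESeq2 and edgeR called 0 members against siCTRL#1, and against NT edgeR called 0 and DESeq2 called B2M lower and HLA-F higher. No member was called in all 4 comparisons of VPS4A, where 0.00792% of all genes were, the 1 gene being VPS4A itself.

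The VPS4A duplexes differed directly in 4 members, at a background of 33.2%. With siVPS4A#2 relative to siVPS4A#1, HLA-E was higher by 0.56 ± 0.11 (log2, SE; adjusted p = 0.00015), HLA-C by 0.50 ± 0.15 (adjusted p = 0.00899) and HLA-F by 0.67 ± 0.24 (adjusted p = 0.0265), and TAP1 was lower (-0.58 ± 0.12; adjusted p = 0.00014). Residual VPS4A differed as well, as given above, and its part in these values was not tested. HLA-E was called lower in both conditions that hold siVPS4A#1, alone or in pair #2, and not in those that hold siVPS4A#2. Pair #2 also holds siVPS4B#2, which alone gave -0.15 ± 0.11 against siCTRL#1 and -0.23 ± 0.11 against NT (adjusted p = 0.36 and 0.119). The part of each duplex in the value of pair #2 was not tested.

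Silencing of VPS4B alone called between 1 and 3 members higher in each comparison with a reference and none lower. TAP2 was not called, its log2 fold changes lying between -0.24 and -0.12. With siVPS4B#2, B2M was at 565, 486, 477 and 481 CPM and rose by 0.45 ± 0.12 (log2, SE; adjusted p = 0.0105) against siCTRL#1. Against NT, B2M differed by 0.05 ± 0.13 (adjusted p = 0.828). TAP1 was at 75.5, 65.5, 69.9 and 79.1, above both references, and rose by 0.45 ± 0.11 against each (adjusted p = 0.0045 and 0.00236). TAPBP rose against siCTRL#1 (0.54 ± 0.19; adjusted p = 0.0496), a call kept under only 2 of 13 alternatives, and HLA-C against NT (0.42 ± 0.14; adjusted p = 0.0273), kept under 8. With siVPS4B#1, B2M rose by 0.35 ± 0.12 against siCTRL#1 (adjusted p = 0.0331) and HLA-C by 0.55 ± 0.14 against NT (adjusted p = 0.00227). The B2M calls were kept under 10 of 13 alternatives with siVPS4B#2 and 9 with siVPS4B#1, and that of TAP1 against siCTRL#1 was lost without replicate 4. The counts were 1 and 1 with siVPS4B#1, against siCTRL#1 and NT (background 22.0% and 36.5%), and 3 and 2 with siVPS4B#2 (14.3% and 26.4%). No member was called in all 4 comparisons of VPS4B, where 2.44% of all genes were. The duplexes differed in TAPBP (0.62 ± 0.19; adjusted p = 0.0161) and HLA-E (-0.30 ± 0.11; adjusted p = 0.0386), at a background of 25.3%.

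**Figure D3:**
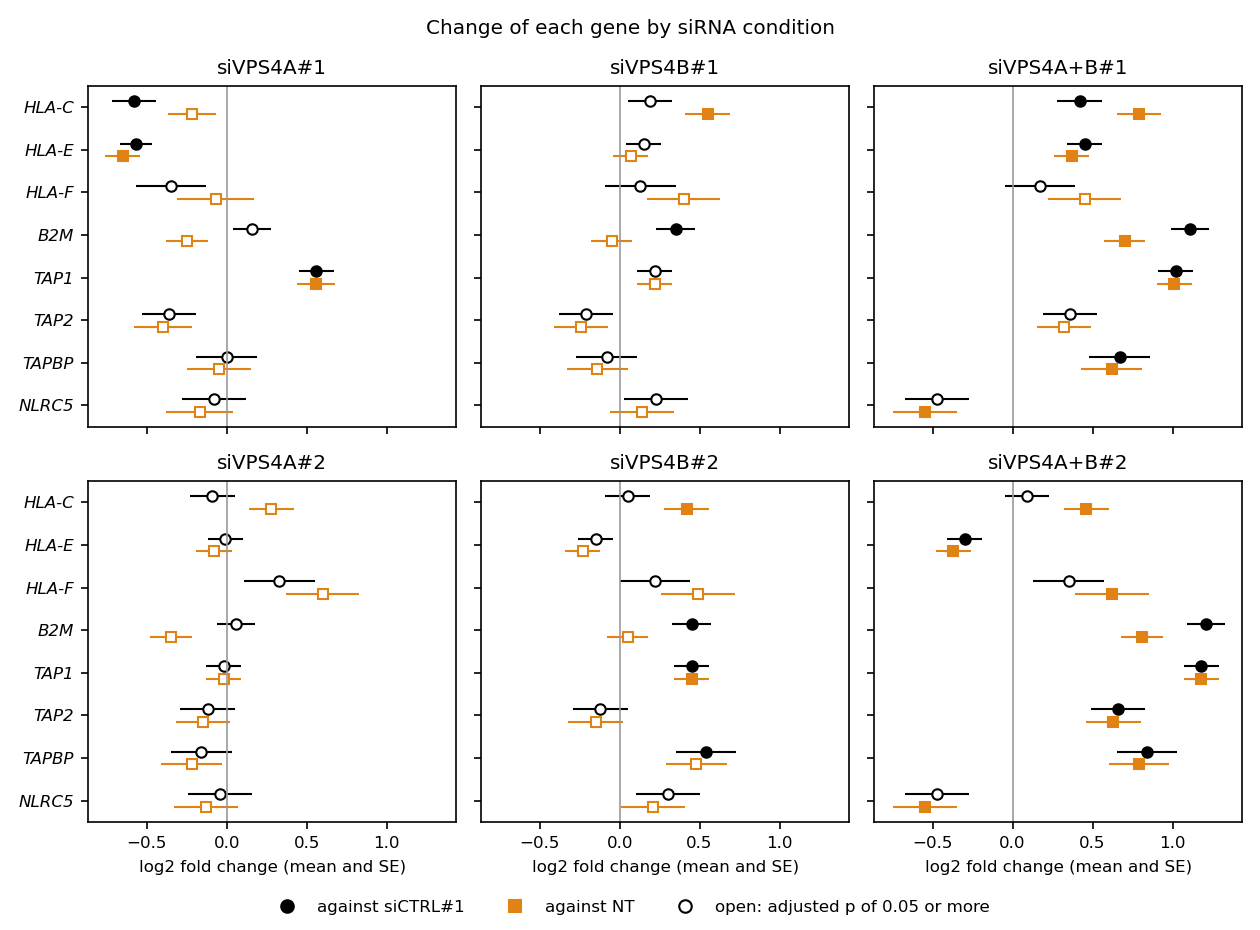
Log2 fold change with SE (x axis) of 8 members (y axis) in each silenced condition against siCTRL#1 (black circles) and NT (orange squares), filled where the adjusted p was under 0.05. HLA-B is left out because it was at the floor. TAP1 lies between 1.01 and 1.18 in the combined conditions, and HLA-E is at 0.45 with siVPS4A+B#1 and -0.30 with siVPS4A+B#2 against siCTRL#1.

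Whether combined silencing went beyond the sum of the single effects was tested as an interaction on the log2 scale, in which both single effects of the same duplexes are subtracted from that of the pair. For pair #1 the single effects of TAP1 added up to 0.20, and the pair reached 1.02, an interaction of 0.82 ± 0.16 (SE; adjusted p = 0.000569) kept under 13 of 13 alternatives. B2M had a sum of 0.41 and a pair effect of 1.11, an interaction of 0.70 ± 0.18 (adjusted p = 0.00963), lost without replicate 4 and with the left-out library put back. TAPBP had a sum of -0.24 and a pair effect of 0.67, an interaction of 0.92 ± 0.27 (adjusted p = 0.0326) that was kept under only 3 of 13 alternatives. These 3 members were called at a background of 6.34%.

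For pair #2 the interaction was called in 4 members at a background of 19.7%. TAP2 had single effects of -0.36 ± 0.17 with siVPS4A#1 and -0.12 ± 0.17 with siVPS4B#2, neither called (adjusted p = 0.0837 and 0.694). Its siVPS4A#1 libraries were widely spread, at 33.4, 67.3, 37.2 and 24.3 CPM. These effects summed to -0.48 beside a pair effect of 0.66, an interaction of 1.14 ± 0.24 (SE; adjusted p = 0.000606) kept under 13 of 13 alternatives. For B2M it was 0.60 ± 0.17 (adjusted p = 0.0119), lost under scaling by total reads, without replicate 2 or 3 and with the left-out library put back. HLA-C had a sum of -0.53 and a pair effect of 0.09, an interaction of 0.62 ± 0.20 (adjusted p = 0.0221) kept under 8 of 13 alternatives. That value rests on siCTRL#1 as the reference, where HLA-C was at 482 ± 95.2 CPM (SD, n = 5). HLA-C was at 378 ± 13.5 in NT and 381 ± 30.5 with siCTRL#2 (n = 4 each). Against NT its log2 fold changes were -0.22 with siVPS4A#1, 0.42 with siVPS4B#2 and 0.46 with pair #2. An interaction with NT as the reference was not tested. HLA-E had a sum of -0.73 and a pair effect of -0.30, an interaction of 0.43 ± 0.15 (adjusted p = 0.0384) kept under 4. For both genes pair #2 thus lay above the sum without being called higher than siCTRL#1. TAP1 was not called with pair #2, its pair effect of 1.18 lying 0.16 ± 0.16 (adjusted p = 0.506) above the sum of 1.01. NLRC5 had negative interactions with both pairs that were not called (-0.66 ± 0.29 and -0.68 ± 0.28; adjusted p = 0.188 and 0.0845).

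**Figure D4:**
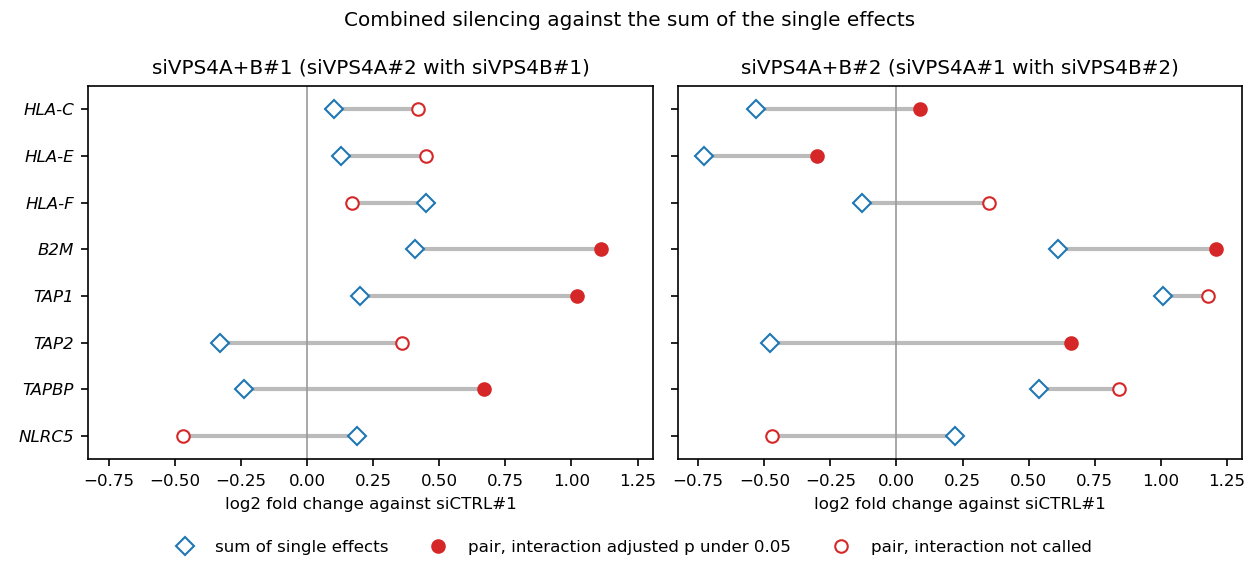
Log2 fold change against siCTRL#1 (x axis) of 8 members (y axis), as the sum of the single effects (diamonds) and as measured in the pair (circles, filled where the interaction had an adjusted p under 0.05). The pair exceeded the sum for B2M with both pairs, 1.11 beside 0.41 and 1.21 beside 0.61, whereas TAP1 exceeded it with pair #1 and lay at 1.18 beside 1.01 with pair #2.

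Differences between controls were of the size of several of the smaller changes. Between siCTRL#1 and NT 1 member, B2M, was called at a background of 17.1%. Between siCTRL#2 and siCTRL#1 3 members were called at a background of 29.1%, B2M being higher (0.32 ± 0.12 SE, log2; adjusted p = 0.0474) and HLA-C (-0.36 ± 0.14; adjusted p = 0.0499) and HLA-F (-0.64 ± 0.22; adjusted p = 0.0269) lower. The pairs differed in 1 member, HLA-E, at a background of 29.4%. The log2 fold changes of B2M and TAP1 with both pairs were larger than these control differences.

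Other genes of the pathway were counted by the same rule of all 4 comparisons, whose background for combined silencing was 14.3%. Of 8 peptide-loading partners such as calreticulin, calnexin and PDIA3, none was called, and the median of their mean log2 fold changes was -0.18. Of 7 immunoproteasome and PA28 genes only POMP, the proteasome maturation factor, rose (mean log2 fold change 0.80), and of 3 constitutive catalytic subunits PSMB5 (0.92) and PSMB7 (0.59) rose. Of 10 measured class I-like heavy chains, MICA (1.27) and RAET1E (0.94), both ligands of the NKG2D receptor of natural killer cells, rose, and RAET1E rested on 21 to 52 reads in the combined libraries. Of 17 measured regulators of class I transcription 5 rose and 1 fell. RELB (2.60) and NFKB2 (1.86), subunits of the alternative NF-kappaB pathway, and the interferon factors IRF9 (1.37) and IRF1 (0.83) rose most. IRF9 was also the only gene of these lists called after silencing of VPS4B alone (1.13). Of 7 interferon receptors and kinases none was called.

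Genes of neighbouring routes moved in small numbers after combined silencing, counted by the same rule of all 4 comparisons. Of 8 measured class II presentation genes 2 fell, HLA-DRA (-0.65) and HLA-DOA, the latter at the floor with 0 or 1 read in each combined library. Of 12 measured genes of class I surface turnover 3 rose, the ubiquitin ligases SYVN1 (0.42) and MARCHF4 (1 to 8 reads a combined library, beside 0 or 1 in the references) and the derlin DERL1 (0.55). No gene of the lists was called in all 4 comparisons of VPS4A. Markers of other cell types were checked beside these values. The 7 measured of 12 colorectal epithelial markers, among them EPCAM, CDH1 and KRT20, summed to 4360 to 7020 CPM in NT and siCTRL#1 libraries. In the combined libraries they summed to 5440 to 8200, and none was called in all 4 comparisons. In single comparisons some were called, the most with pair #1 against NT, where 2 rose and 3 fell. Of 9 leukocyte markers 2 were in the table, and their sum was 5.27 to 10.7 in the references and 41.0 to 176 in the combined libraries. That sum was led by CD68, a lysosomal membrane protein also used as a macrophage marker, which rose (mean log2 fold change 3.44), and the part of these markers in the results was not tested. Of 8 stromal and endothelial markers 2 were in the table, with sums of 8.54 to 31.6 and 23.0 to 85.8. None was called in all 4 comparisons, though 1 rose in each comparison apart from pair #1 against siCTRL#1.

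The genes whose levels followed TAP1 most closely were SFN (Pearson r = 0.918), WFDC3 (0.911), SQSTM1 (0.908), TNFAIP1 (0.899) and SH3RF2 (0.897), over 37 libraries and after replicate means were removed. The libraries of a condition share their treatment, so these values describe likeness across conditions and carry no test. For HLA-B no such genes are given, since it was at the floor.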

How the data were processed

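HCT116 RNA was read with an Ion AmpliSeq transcriptome panel on an Ion Proton instrument. Per the study's methods and the submitters' processing notes, the authors aligned reads to hg19 panel transcripts with TMAP, counted them with HTSeq 0.6.0 and tested genes with DESeq2 1.18.1. Each deposited value is a gene's share of the reads of its library (a signal, summing to 1 per library). The study's methods set a minimum of 10 reads for the genes tested, and whether the same filter made this table of 12627 genes is not given in the sources used here. Because the lowest values are whole multiples of 1 read, reads were recovered; at least 99.69% of the values printed with enough digits were whole within 0.1 read. Amplified reads are not independent molecules, and floors cover counting error only.

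Conditions and replicate numbers came from the sample labels. The main test was limma 3.58.1 with an intensity trend on log2 of CPM (TMM factors from edgeR 4.0.16) plus 1. It held the 9 conditions and, as a block, the replicate number, with Benjamini-Hochberg adjustment over 12627 genes at 0.05. No filter on low values was used. In the labels each replicate number goes with 1 of 5 batch letters, so the number marks a shared batch. Residuals of libraries with the same number correlated at a mean r of 0.19 over 137 pairs, and those with different numbers at -0.083 over 529 pairs (8324 genes). The members and gene lists were chosen with earlier results of these data known. Every member was named, list genes only where called in all 4 comparisons of a target (both duplexes against siCTRL#1 and NT), up to 4 a list, and for TAP1 the 5 most similar genes. Alternatives were DESeq2 1.42.0 and edgeR's quasi-likelihood test on recovered reads, no block, total-read scaling, DESeq2 size factors, a pseudocount of 0.1, a filter on low values (which removed HLA-B), the left-out library put back, each replicate left out, a fold of 1.5 and siCTRL#2 as reference. On simulated reads of 12627 genes for siVPS4A+B#1 against siCTRL#1, limma called 97% of raised and 94% of lowered genes, and for the interaction of pair #1 61% and 64%. It also called 9 and 10 unchanged genes. The simulation held no batch effect and changed only genes with more reads than TAPBP, HLA-F and HLA-B. Raised genes had a median log2 fold change of 0.99 in the first comparison. These shares therefore do not cover those members or smaller changes. Symbols of 12474 genes came from RefSeq and positions from GRCh37. Software was R 4.3.3, Python 3.11.15, numpy 2.4.6, pandas 2.3.3 and matplotlib 3.10.9.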

Additional observations from a re-analysis of the deposited data

Results flagged for a closer look

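Within conditions, 7 of 79 tested groups of 4 or 5 libraries held 1 library far from the others, where chance gives about 1 in 20. In CPM after TMM scaling, HLA-C stood at 836 in siVPS4A+B#1 replicate 1 beside 591 to 620 in the others, HLA-E at 141 in siVPS4A#1 replicate 3 beside 180 to 187, and B2M at 565 in siVPS4B#2 replicate 1 beside 477 to 486. HLA-F stood at 5.41 in NT replicate 1 beside 3.60 to 3.73 and at 11.7 in siVPS4A+B#2 replicate 1 beside 5.44 to 5.89. TAPBP stood at 4.21 in siVPS4B#2 replicate 2 beside 2.68 to 2.85 and at 4.06 in siVPS4A+B#1 replicate 3 beside 3.22 to 3.35.

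The interaction was called in 7 tests, at a background of 6.34% for pair #1 and 19.7% for pair #2, and only B2M was called with both pairs. These were B2M (0.70), TAP1 (0.82) and TAPBP (0.92) for pair #1, and HLA-C (0.62), HLA-E (0.43), B2M (0.60) and TAP2 (1.14) for pair #2, in log2 units. Only those of TAP1 and TAP2 were kept under 13 of 13 alternatives. B2M was kept under 11 with pair #1 and 9 with pair #2, HLA-C under 8, HLA-E under 4 and TAPBP under 3.

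The library left out, labelled siVPS4A#1 replicate 2, held 669257 reads. Per 1000000 of its total reads, B2M stood at 953 beside 297 to 567 in the NT and siCTRL#1 libraries, 395 to 490 in the other siVPS4A#1 libraries and 652 to 935 in the combined ones. TAP1 stood at 98.6 beside 46.5 to 60.8 in the references, and TAP2 at 80.7 beside 46.0 to 67.3. The same library held 1 read of VPS4B, or 1.49 per 1000000, beside 16.3 to 28.6 in the references and 21.7 to 35.0 in the other siVPS4A#1 libraries, and VPS4A stood at 10.5.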

How the results depend on the processing

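No called fold change of a member reversed under any alternative. Of the log2 fold changes of the members, 2058 kept their side of the threshold, 119 lost a call and 27 gained one, and 71 values called in neither fit changed sign. For combined silencing 3 members were called in all 4 comparisons, 2 to 3 when single replicates were left out, TAPBP being lost without replicate 1 or 4. NLRC5 was gained when libraries were scaled by total reads, and HLA-C with siCTRL#2 in place of siCTRL#1. That reference also moved the count for VPS4B from 0 to 1 (HLA-C), while the count for VPS4A stayed at 0. With the library labelled siVPS4A#1 replicate 2 put back, whose VPS4B level (1 read) goes against its label, the interaction count fell from 3 to 1 for pair #1 and from 4 to 1 for pair #2, the count between duplexes from 4 to 2 for VPS4A and from 2 to 1 for VPS4B, and that between siCTRL#1 and NT from 1 to 0 and between siCTRL#2 and siCTRL#1 from 3 to 1. Scaling by total reads gave 2 for the interaction of pair 2 and 2 for siCTRL#1 against NT, and DESeq2 gave 2 for the latter, while edgeR gave 1 for siCTRL#2 against siCTRL#1. Without the replicate block the count was 1 between the VPS4B duplexes and 1 between siCTRL#2 and siCTRL#1, and no other count of members moved by over 1.5 times. A fold of at least 1.5 left 1 call between the VPS4A duplexes, 1 between the VPS4B duplexes, 0 between siCTRL#1 and NT and 1 between siCTRL#2 and siCTRL#1. Without single replicates the counts ranged from 1 to 3 for each interaction, 3 to 4 between the VPS4A duplexes, 0 to 2 between the VPS4B duplexes, 0 to 2 for siCTRL#1 against NT and 0 to 3 for siCTRL#2 against siCTRL#1. Over all genes, the calls fell at the lowest from 800 to 327 and from 2489 to 1267 for the interactions of pairs 1 and 2 with that library put back, from 2160 to 1164 for siCTRL#1 against NT and from 1817 to 899 for siVPS4A#2 against NT without replicate 3, from 1801 to 920 for siVPS4B#2 against siCTRL#1 without replicate 1 and from 11 to 5 for siVPS4A#2 against siCTRL#1 without the block. The causes were not tested. Depth limits HLA-B, at 5 reads or fewer a library, and TAPBP and HLA-F, at 4 to 87 reads.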

Other observations

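PSMB9 and PSMB8, named here after their values had been seen, are the immunoproteasome subunits that lie beside TAP1 on chromosome 6, and neither was called higher in all 4 comparisons. PSMB9 was at 14.6 ± 2.10 (SD, n = 4) CPM in NT, 25.5 ± 3.10 (n = 5) with siCTRL#1, 13.3 ± 4.80 with siVPS4A+B#1 and 16.3 ± 4.67 with siVPS4A+B#2. Its mean log2 fold change after combined silencing was -0.43, from -0.99 to 0.12 over the 4 comparisons. PSMB8 had at most 9 reads in any library, so it was near the floor.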
